A study of Homo sapiens with 12 samples.

Results

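The 51 genes described here act in mitosis and in the G2 phase that precedes it. They were listed by name and function, and their rows were read from a table of 61044 gene IDs. Each of the 51 had 1 row, and all 51 were among the 17532 genes that passed the filter on low counts and were tested. They fall into 8 groups by role: cyclins, CDK1 and its activators (10 genes), mitotic kinases and the passenger complex (7), the spindle checkpoint and the anaphase-promoting complex (8), the kinetochore (5), mitotic kinesins (7), spindle microtubule proteins (6), cytokinesis (4), and mitotic chromosomes and others (4).

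The 12 RNA libraries came from SCC-15, a cell line of human oral squamous cell carcinoma. Cells carried either a negative-control short hairpin RNA (shRNA-NC, here NC) or 1 of 3 hairpins against FMOD, the gene of the matrix proteoglycan fibromodulin (shRNA1, shRNA2 and shRNA3), and every group was harvested after 48 hours. Each of the 4 groups had 3 libraries of 17286934 to 19567192 estimated counts. The labels do not say whether the libraries of a group came from separate cultures or clones, so the p-values measure only the spread between these libraries, which may be technical. FMOD itself had 2, 2 and 3 counts in the NC libraries and 0 in all 9 shRNA libraries, a difference of -0.16 in log2(CPM + 1) (exact two-sided permutation test, p = 0.00909, the smallest that the 220 splits allow). At so few counts in NC, FMOD was under the filter on low counts, and how far it fell cannot be measured.

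Whole libraries differed in ways that touch the values below. Across all genes tested, log2 CPM of NC and shRNA libraries correlated at Pearson r = 0.773 to 0.795, against 0.961 to 0.972 between shRNA1 and shRNA2 libraries. Libraries 1 and 2 of shRNA3 stood apart from library 3 of the same hairpin (r = 0.908 to 0.911, against 0.987 between libraries 1 and 2), while library 3 correlated with shRNA1 and shRNA2 libraries at 0.972 to 0.981. All 10 squamous markers were read in these cells, with summed levels of 2302 to 2518 CPM (counts scaled to a common library total) in NC and 1961 to 2719 in the shRNA libraries. With the shRNA mean 6 of the 10 were higher and 3 lower (edgeR's quasi-likelihood test, adjusted p under 0.05). KRT14, a basal keratin, was at 6.51 to 9.58 CPM in NC and 24.2 to 230.3 in the shRNA libraries, and its partner KRT5 at 964 to 1048 and 16.5 to 90.2. KRT6A, KRT17 and DSP (desmoplakin) were also above NC in all 9 shRNA libraries. TP63 was below NC in all 9, at 156 to 175 CPM in NC and 51.5 to 141 with shRNAs. CDH1, the epithelial cadherin, was at 310.1 to 335 and 35.3 to 79.3. Summed levels of 8 fibroblast markers were 56.8 to 59.9 CPM in NC and 15.5 to 86.5 with shRNAs, those of 6 leukocyte markers 58.7 to 76.3 and 44.4 to 236, and those of 4 endothelial markers 17.6 to 23.1 and 3.88 to 13.2. The largest parts of the fibroblast and leukocyte sums were COL1A1 and CD68. COL1A1 was at 40.3 to 43.0 CPM in NC and 14.8 to 85.3 with shRNAs, and CD68 at 53.6 to 71.9 and 43.7 to 235. DCN and FAP (fibroblasts), PTPRC and MS4A1 (leukocytes) and KDR (endothelium) were at or near 0, at no more than 0.436 CPM in any library. Others of these lists were read and moved. PDGFRB (fibroblasts) was at 9.35 to 11.7 CPM in NC and 0.445 to 1.29 with shRNAs, CDH5 (endothelium) at 15.4 to 20.5 and 0.519 to 2.76, and CD14 (leukocytes) at 3.60 to 4.82 and 0.413 to 2.27, and COL1A2 and LUM were likewise below NC in all 9 shRNA libraries. PECAM1 (endothelium) was above NC in all 9, at 0.101 to 0.197 and 2.09 to 9.68. The part of these differences in the results below was not tested.

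Entry into mitosis is driven by CDK1 bound to A- and B-type cyclins, once phosphatases of the CDC25 family remove its inhibitory phosphates. Polo and Aurora kinases then build the spindle, the NDC80 complex ties chromosomes to microtubules, and the checkpoint holds back the anaphase-promoting complex (APC/C) until all chromosomes are attached. Most of these genes are transcribed in G2 under the transcription factors FOXM1 and B-MYB and the MuvB complex, which binds a short promoter element called the cell cycle genes homology region (CHR), often beside CCAAT boxes bound by NF-Y.

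Promoters are shown to let the element be seen beside the values. In RefSeq (GRCh38.p14), 42 of the 51 genes had an entry of 250 bases before to 50 after a transcription start. AURKA, BIRC5, BUB3, CDCA2, FOXM1, RACGAP1, TPX2, TTK and UBE2C had none. Of the members with a CHR upstream of the start, CDC25B and GTSE1 had the highest change with the shRNAs, and NDC80 had the lowest change of all 51. The stretches run from 130 bases before the start to 20 after it, on the plus strand, at chr20:3796180-3796329 for CDC25B (1 of its 4 entries), chr22:46296740-46296889 for GTSE1 and chr18:2571427-2571576 for NDC80. Capitals mark matches on either strand to CHR (TTTGAA or TTCGAA) and to CCAAT.
CDC25B: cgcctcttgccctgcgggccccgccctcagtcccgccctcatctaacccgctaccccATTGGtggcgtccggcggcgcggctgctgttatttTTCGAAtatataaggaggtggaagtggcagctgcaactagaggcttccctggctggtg
GTSE1: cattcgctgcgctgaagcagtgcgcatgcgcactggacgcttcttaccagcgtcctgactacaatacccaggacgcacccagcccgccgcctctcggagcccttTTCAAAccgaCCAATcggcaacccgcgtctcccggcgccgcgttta
NDC80: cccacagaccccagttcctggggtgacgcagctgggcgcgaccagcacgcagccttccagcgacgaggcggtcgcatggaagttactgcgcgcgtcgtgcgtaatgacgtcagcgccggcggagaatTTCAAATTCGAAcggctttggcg

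In CDC25B the CHR match began 38 bases before the start and the CCAAT match 73 before it. GTSE1 held them at 26 and 16 bases before the start. NDC80 held no CCAAT match, and its 2 CHR matches lay side by side across the start, from 3 bases before it and from position 4 after it. At least 1 CHR match lay in the promoters of 33 of 42 members (78.6%), against 19.5% of the 27305 genes in the table. A CCAAT match was found in 35 members (83.3%, against 39.7%), and 2 or more in 23 (54.8%, against 12.9%). Another element, that of the E2F factors (TTTCCCG or TTTGGCG or TTTCGCG), which is known from genes of the G1/S transition, was matched in 8 members (19.0%, against 8.67%). Matches of different motifs were counted separately wherever they lay, and a match is a description of sequence, not a bound site.

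CHR matches of members were not spread evenly. Among their 52 promoter entries, 15 (28.8%) had a CHR match starting 11 to 30 bases before the start, against 383 of all 35116 entries (1.09%). By gene, in a window chosen after the positions were seen, 20 of 42 members (47.6%) had a match starting 1 to 40 bases before the start, against 2.81% of genes. The median log2 change of the shRNA mean against NC was 0.72 for the 33 members with a CHR match, 1.06 for the 9 without and 1.16 for the 9 with no entry. Members without a match included CCNA2, CCNB1 and AURKB. Only TTTGAA and TTCGAA were searched as CHR, so a member without a match is not shown to lack the element.

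**Figure D1:**
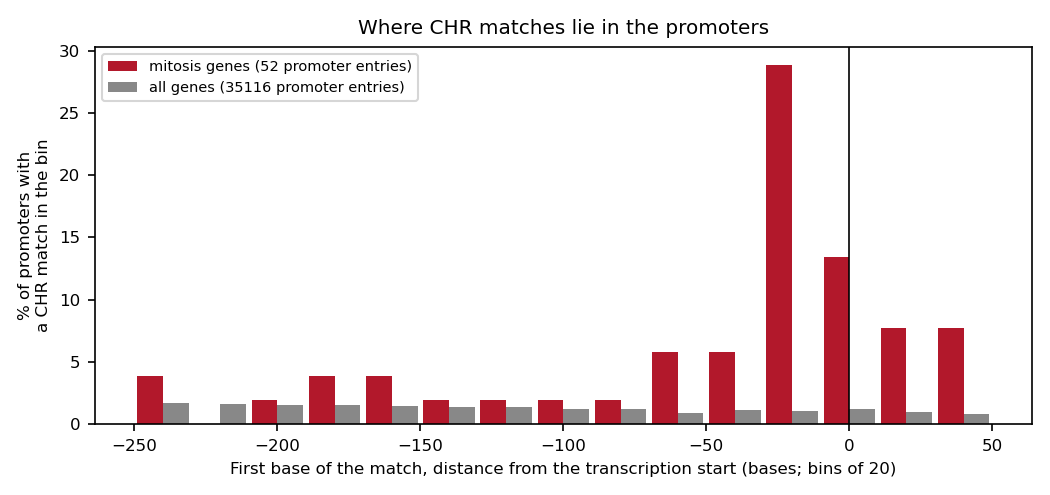
Share of promoter entries with a CHR match in each bin of 20 bases, by distance of the match's first base from the transcription start, for the mitosis genes (red, 52 entries of 42 genes) and for all genes (grey, 35116 entries). The red bars peak at 28.8% in the bin from 30 to 11 bases before the start, where the grey bar is at 1.09%.

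The mitosis genes were mostly higher with each of the hairpins. With the mean of the 3 shRNAs, 37 of 51 members were higher than in NC and 1, NDC80, was lower (edgeR's quasi-likelihood test, Benjamini-Hochberg (BH) adjusted p under 0.05), where 27.9% of all genes tested were higher and 32.2% lower. With shRNA1, 29 members were higher and 1 lower (all genes, 26.8% and 30.6%). With shRNA2 the counts were 37 and 1 (24.6% and 28.4%), and with shRNA3 they were 38 and 1 (26.4% and 27.6%). The median log2 change of the 51 members was 0.71, 0.98 and 1.09 with shRNA1, shRNA2 and shRNA3, beside medians of -0.02, -0.05 and -0.03 over all genes tested. In bulk RNA, more cells in G2 or mitosis and more transcript in each such cell cannot be told apart. The 3 comparisons share the NC libraries, so their agreement is not independent. Any trait of the NC libraries enters all 3, and it cannot be told apart from an effect of the hairpins. Of the 38 calls with the shRNA mean, 32 held when each library was left out in turn. NEK2, ECT2 and KIF11 lost theirs without any 1 NC library, TTK without NC library 1 or 2, CENPA without NC library 1 or 3, and INCENP without NC library 3 (edgeR BH-adjusted p up to 0.111), and KIF11 also without shRNA1 library 2 or 3 or shRNA2 library 1 or 2. By hairpin, 25 of 30, 28 of 38 and 35 of 39 calls held. All groups share 1 dispersion estimate per gene, so the spread within shRNA3 also enters the errors of shRNA1 and shRNA2. Fitted with only the libraries compared, shRNA1 against NC gained 5 calls of members and lost 0. There shRNA2 gained 11 and lost 0, and shRNA3 gained 1 and lost 4. The share of all genes in these fits is not given, so these counts describe the fits and are not results about the members. A gene that passed with 1 hairpin only is therefore not shown to differ between hairpins. Without shRNA3 library 3, HMMR joined NDC80 as lower with the shRNA mean, at -1.21 (all genes lower in that fit, 40.6%).

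Levels per library showed the same direction. Summed over the 51 genes, TMM-scaled CPM (CPM after edgeR's scaling between libraries) was 4018, 3936 and 3903 in the NC libraries. The sum was 5797, 6499 and 7342 with shRNA1, 8129.8, 8101 and 7961 with shRNA2, and 11037, 10369.6 and 7065 with shRNA3. No shRNA library overlapped NC in this sum. As a share of all counts, the genes made up 0.431% to 0.440% of NC libraries and 0.599% to 0.851% of shRNA libraries. Libraries 1 and 2 of shRNA3 had TMM factors of 0.771 and 0.795, which raise their scaled CPM. By share of counts they were at 0.851% and 0.824%, beside 0.796% to 0.829% with shRNA2. All 9 shRNA libraries lay above every NC library for 29 members, where 19.0% of all genes did so, and below every NC library for NDC80 alone, where 25.8% of all genes did so. By hairpin, 36 members with shRNA1, 48 with shRNA2 and 35 with shRNA3 had all 3 libraries above NC (all genes, 35.7%, 38.2% and 25.5%).

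**Figure D2:**
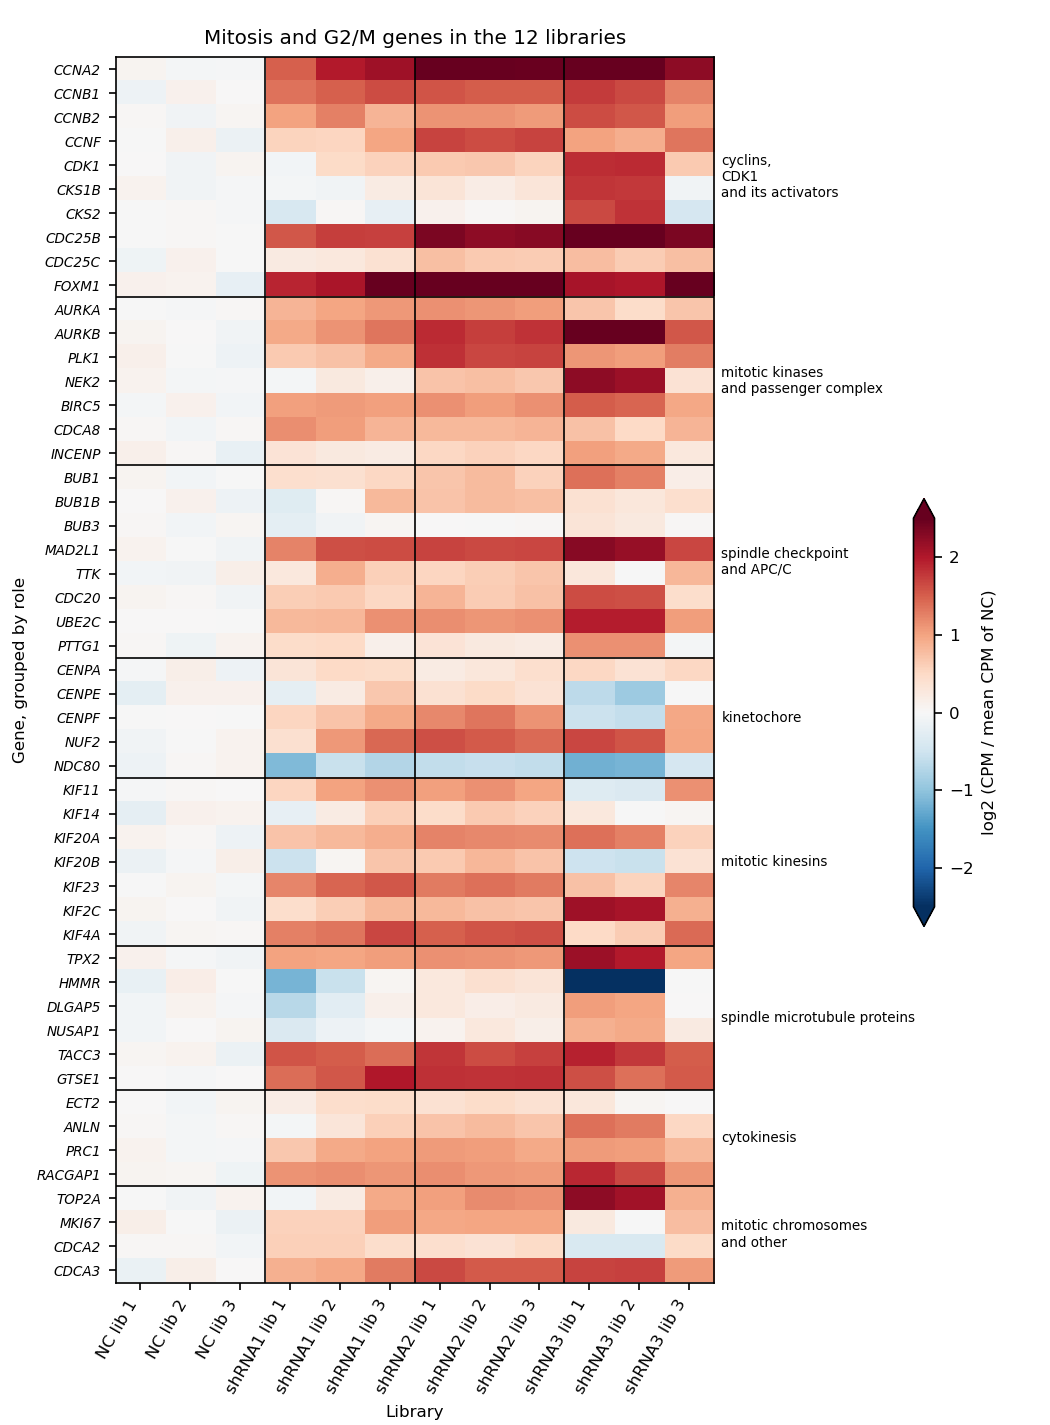
Level of each of the 51 genes (rows, grouped by role) in each of the 12 libraries (columns), as log2 of TMM-scaled CPM over the mean of the 3 NC libraries. Most rows are red in all 9 shRNA libraries, NDC80 is blue in all 9, and HMMR, CENPE, CENPF, KIF11, KIF20B and CDCA2 are blue in libraries 1 and 2 of shRNA3 but not in library 3.

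The comparison with shRNA3 was also made with its libraries split, because they stood apart. The split was chosen from these same data, and it takes out most of the spread within shRNA3. For CKS2 the standard error was 0.41 with all 3 libraries and 0.11 with libraries 1 and 2. Calls within the split, here and below, are therefore descriptions of these libraries. Against NC, libraries 1 and 2 gave 39 members higher and 6 lower (all genes, 32.3% and 40.7%), and the 6 were CENPE, CENPF, NDC80, KIF11, HMMR and CDCA2. Library 3 alone gave 36 higher and 1 lower, CKS2 (all genes, 28.1% and 28.8%), in a fit that assumes this single library varies like those of the other groups. The median log2 change of the members was 1.14 with libraries 1 and 2 and 0.83 with library 3, beside -0.19 and -0.09 over all genes tested.

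**Figure D3:**
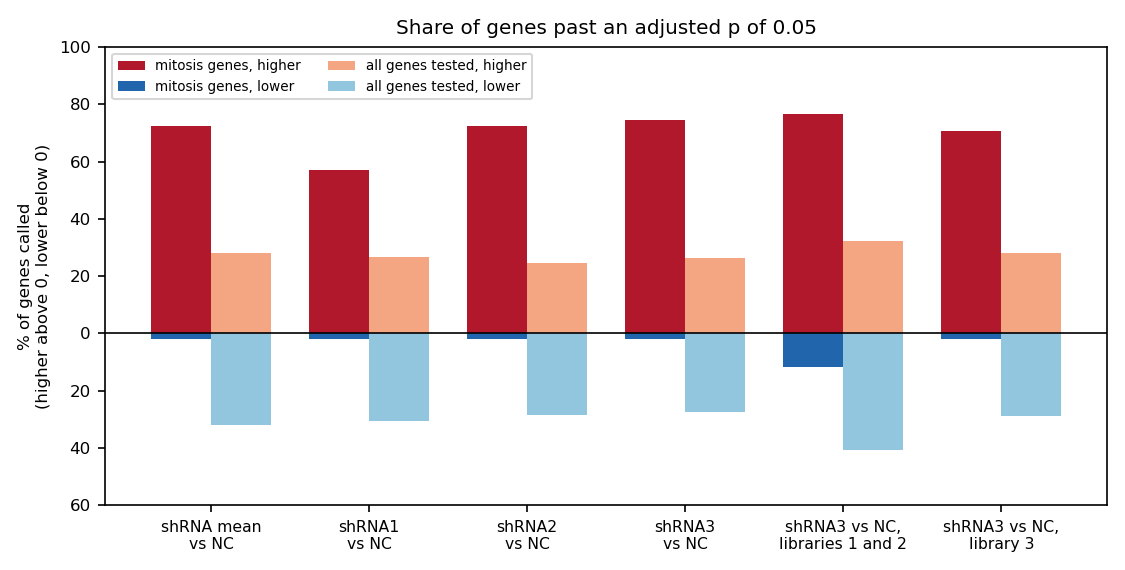
Percentage of the 51 mitosis genes (dark bars) and of all genes tested (pale bars) past an adjusted p of 0.05 in edgeR's quasi-likelihood test, with higher genes above 0 and lower genes below it, for each comparison with NC and for shRNA3 with its libraries split. The dark red bars stand above the pale ones in all 6 comparisons, and with libraries 1 and 2 of shRNA3 there are 6 lower members in place of 1.

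The cyclins, CDK1 and its activators held the members with the highest changes, CCNA2, FOXM1 and CDC25B. Of the 10 genes, 8 were higher with the shRNA mean, 6 with shRNA1, 7 with shRNA2 and 10 with shRNA3, and none was lower. In the same order, 27.9%, 26.8%, 24.6% and 26.4% of all genes tested were higher. Each role group is small, so its count is a description. CCNA2, the A-type cyclin that partners CDK2 in S phase and CDK1 in G2, had CPM of 31.8, 29.3 and 29.9 with NC, 85.5, 120.1 and 133 with shRNA1, 178, 181 and 169 with shRNA2 and 274, 251 and 142 with shRNA3. Every shRNA library was at least at 85.5, above all NC libraries, and the levels with shRNA1 were below those with the other hairpins. The log2 change was 1.89 ± 0.23 with shRNA1, 2.54 ± 0.24 with shRNA2 and 2.87 ± 0.24 with shRNA3 (edgeR BH-adjusted p = 4.69e-05, 6.92e-06 and 3.43e-06), and the shRNA mean was 5.41-fold above NC.

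FOXM1, the transcription factor of G2/M genes, had the highest change of all members with shRNA1 and shRNA2. Its CPM was 49.2, 48.6 and 39.5 with NC, 170.2, 188 and 284 with shRNA1, 302, 287 and 289.8 with shRNA2 and 192, 187 and 262 with shRNA3, with no overlap between NC and any hairpin. It rose by 2.22 ± 0.21 with shRNA1, 2.68 ± 0.21 with shRNA2 and 2.22 ± 0.21 with shRNA3 on the log2 scale (edgeR BH-adjusted p = 6.99e-06, 2.19e-06 and 7.43e-06). CDC25B, a phosphatase that activates CDK1, was at 63.8, 65.9 and 64.2 with NC, 191, 214 and 211 with shRNA1, 329, 306 and 315 with shRNA2 and 446, 409 and 329 with shRNA3, so that its level differed between the hairpins as well as from NC. It rose by 1.67 ± 0.13 with shRNA1, 2.29 ± 0.14 with shRNA2 and 2.61 ± 0.14 with shRNA3 (edgeR BH-adjusted p = 2.12e-06, 2.86e-07 and 1.4e-07). CDC25C, a phosphatase of the same family, was at no more than 15.5 CPM in NC and 24.8 with shRNAs, and its change was 0.29 ± 0.14 with shRNA1, 0.68 ± 0.14 with shRNA2 and 0.72 ± 0.14 with shRNA3, past the threshold with shRNA2 and shRNA3.

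The B-type cyclins and cyclin F passed the test with each hairpin. CCNB1, the main partner of CDK1 in mitosis, was at 70.2, 82.7 and 77.0 with NC, 196, 216 and 236 with shRNA1, 227, 219 and 217 with shRNA2 and 256, 240.4 and 181 with shRNA3 CPM. Its shRNA libraries lay between 181 and 256 and its NC libraries between 70.2 and 82.7, and it changed by 1.49 ± 0.15 with shRNA1, 1.53 ± 0.15 with shRNA2 and 1.56 ± 0.15 with shRNA3 (edgeR BH-adjusted p = 9.6e-06, 8.28e-06 and 7.69e-06). CCNB2, the other B-type cyclin, rose by 1.05 ± 0.16 with shRNA1, 1.10 ± 0.16 with shRNA2 and 1.43 ± 0.16 with shRNA3. CCNF, a cyclin that acts as a substrate receptor of an SCF ubiquitin ligase rather than with a CDK, was at 49.2, 54.4 and 45.0 with NC, 73.2, 71.6 and 98.2 with shRNA1, 159, 153 and 160.2 with shRNA2 and 99.0, 93.1 and 125 with shRNA3. In CCNF the shRNA2 libraries were the highest, and the log2 change was 0.71 ± 0.16 with shRNA1, 1.67 ± 0.16 with shRNA2 and 1.09 ± 0.16 with shRNA3 (edgeR BH-adjusted p = 0.0027, 8.36e-06 and 0.000171).

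CDK1 and its small CKS subunits gave another pattern. CDK1 was at 107, 100.3 and 111 with NC, 100.4, 148 and 157 with shRNA1, 166, 169.7 and 156 with shRNA2 and 379.7, 387 and 166 with shRNA3 CPM. Every shRNA2 library lay above NC. In the fit of all 12 libraries CDK1 passed the test only with shRNA3, at 1.55 ± 0.28 (edgeR BH-adjusted p = 0.000708). The shRNA1 value was 0.35 ± 0.27 (edgeR BH-adjusted p = 0.294) and the shRNA2 value 0.63 ± 0.28 (edgeR BH-adjusted p = 0.0737). CKS2, which binds CDK1 and had the highest level per transcript length of this group in NC, 113 ± 2.78 (SD, n = 3) CPM per kb of exon, was at 68.8, 71.1 and 67.8 with NC, 52.7, 70.7 and 60.1 with shRNA1, 74.7, 70.7 and 72.6 with shRNA2 and 218, 241 and 51.5 with shRNA3 CPM. Libraries 1 and 2 of shRNA3 were the only ones far from NC, and library 3 lay below every NC library. The log2 changes of CKS2 were -0.18 ± 0.40 with shRNA1, 0.07 ± 0.40 with shRNA2 and 1.30 ± 0.41 with shRNA3 (edgeR BH-adjusted p = 0.727, 0.896 and 0.0185). Split, the shRNA3 value was 1.73 ± 0.11 with libraries 1 and 2 and -0.40 ± 0.15 with library 3, past the threshold in opposite directions, and the call on all 3 was lost without any 1 of the NC libraries or without library 1 or 2 of shRNA3 (edgeR BH-adjusted p up to 0.0625). CKS1B, its paralog, followed the same libraries, at 363, 359 and 99.0 CPM with shRNA3 and 99.4 to 112 in NC, and passed with shRNA3 only (1.78 ± 0.10 in libraries 1 and 2, and -0.06 ± 0.14 in library 3).

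**Figure D4:**
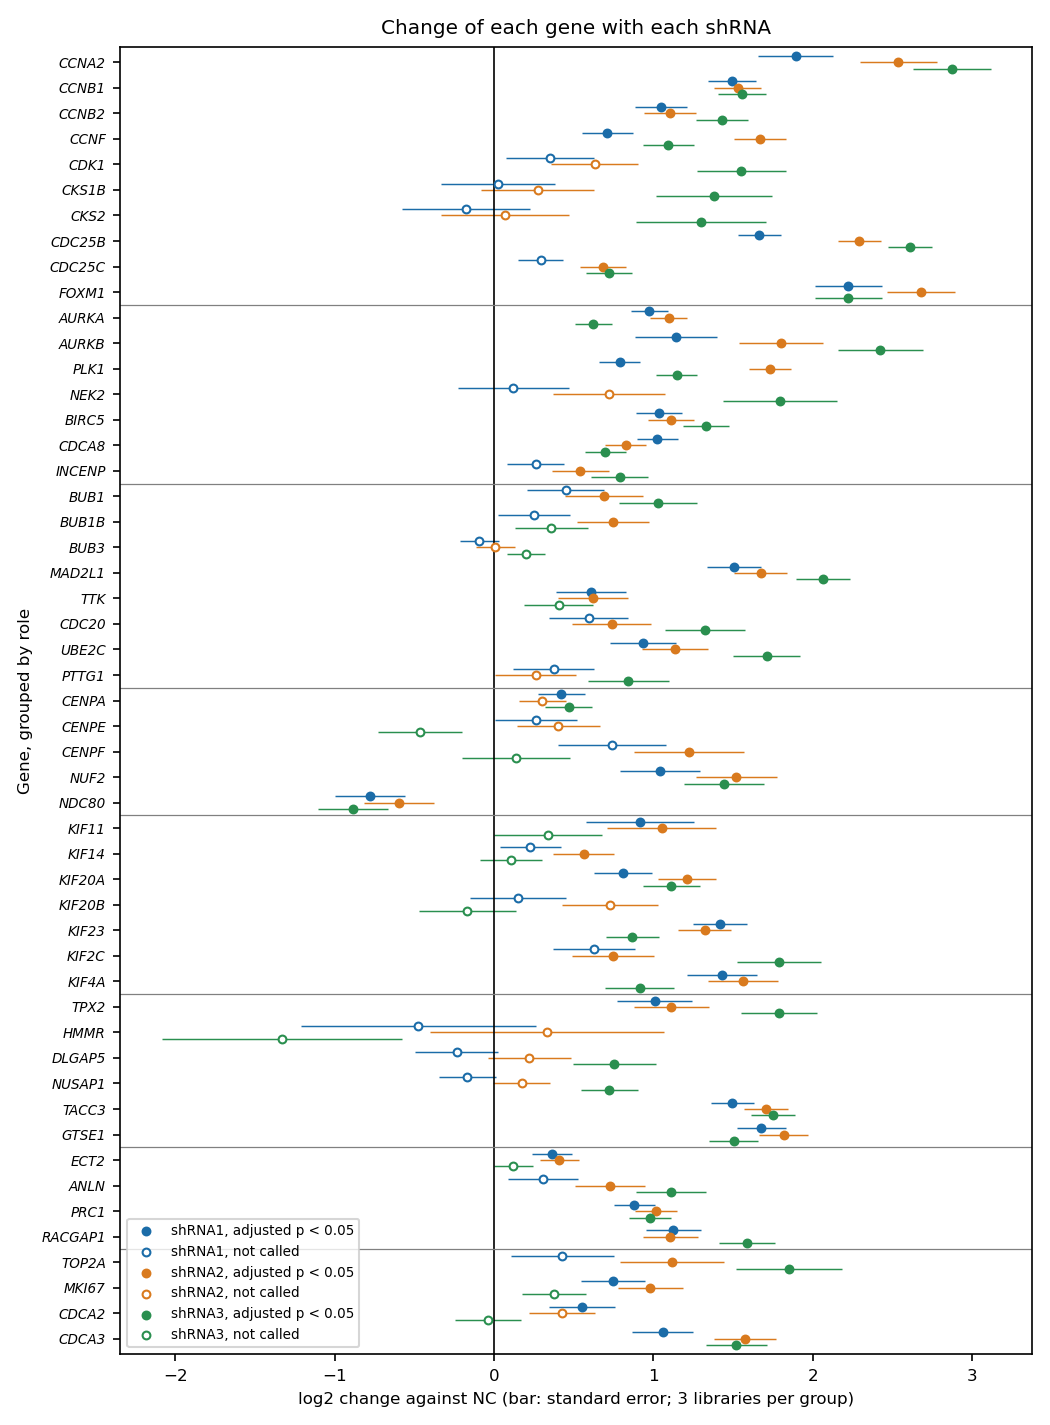
Change of each of the 51 genes against NC on the log2 scale (horizontal axis), with its standard error, for shRNA1 (blue), shRNA2 (orange) and shRNA3 (green), with 3 libraries per group. Filled points passed an adjusted p of 0.05 and open points did not. CCNA2, CDC25B and FOXM1 lie farthest to the right, NDC80 is left of 0 with filled points for all 3 hairpins, and HMMR has the widest error.

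All 7 mitotic kinases and passenger proteins rose with the shRNA mean. With shRNA1 5 of 7 passed, with shRNA2 6 and with shRNA3 7 (all genes higher, 24.6% to 27.9%). AURKB, the kinase of the chromosomal passenger complex, which corrects wrong attachments, had CPM of 40.7, 38.7 and 36.4 with NC, 74.5, 83.6 and 97.2 with shRNA1, 141, 128 and 135 with shRNA2 and 268, 241 and 113 with shRNA3. All shRNA libraries were above NC, and those of shRNA3 split into 2 at 241 and 268 and 1 at 113. Its log2 change was 1.14 ± 0.26 with shRNA1, 1.80 ± 0.26 with shRNA2 and 2.43 ± 0.27 with shRNA3 (edgeR BH-adjusted p = 0.00273, 0.000152 and 2.11e-05). Its partners rose with the shRNA mean by 1.16 ± 0.13 for BIRC5 (survivin), 0.85 ± 0.11 for CDCA8 (borealin) and 0.53 ± 0.15 for INCENP, the scaffold of the complex.

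INCENP had the smallest change of this group with the shRNA mean, at 87.4, 81.8 and 70.3 with NC, 101, 94.5 and 91.5 with shRNA1, 115, 119.6 and 115 with shRNA2 and 163, 155 and 96.5 with shRNA3 CPM. Its shRNA libraries were all above NC, the closest at 91.5 against 87.4. The log2 change was 0.26 ± 0.18 with shRNA1, 0.54 ± 0.18 with shRNA2 and 0.79 ± 0.18 with shRNA3 (edgeR BH-adjusted p = 0.229, 0.0236 and 0.00317). The shRNA2 call was lost without NC library 2 or 3 or without shRNA2 library 1 or 2 (edgeR BH-adjusted p up to 0.0935), and the call on the shRNA mean without NC library 3 (0.0607). Library 3 of shRNA3 alone gave 0.30 ± 0.13, which did not pass.

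AURKA, the Aurora kinase of the spindle poles, had the highest level per transcript length of these kinases in NC, 23.9 ± 0.389 (SD, n = 3) CPM per kb. Its CPM was 70.0, 68.9 and 71.2 with NC, 126, 138 and 149 with shRNA1, 155, 149.6 and 144 with shRNA2 and 113, 96.3 and 114 with shRNA3, with no overlap between NC and any hairpin and the lowest shRNA values in shRNA3. It rose by 0.98 ± 0.12 with shRNA1, 1.10 ± 0.12 with shRNA2 and 0.62 ± 0.12 with shRNA3 (edgeR BH-adjusted p = 3.39e-05, 1.54e-05 and 0.000866). PLK1, the Polo kinase of mitotic entry and exit, was at 86.6, 78.1 and 72.3 with NC, 125, 132 and 153 with shRNA1, 279.7, 252 and 255 with shRNA2 and 170.2, 163 and 191 with shRNA3. Its highest libraries were the 3 of shRNA2, and it rose by 0.79 ± 0.13 with shRNA1, 1.73 ± 0.13 with shRNA2 and 1.15 ± 0.13 with shRNA3 (edgeR BH-adjusted p = 0.000328, 1.47e-06 and 2.56e-05). NEK2, a kinase of centrosome separation, was at 60.8, 55.3 and 56.5 with NC, 56.0, 68.6 and 63.1 with shRNA1, 94.7, 97.3 and 92.4 with shRNA2 and 271, 254 and 74.2 with shRNA3, where libraries 1 and 2 of shRNA3 stand far above the rest. Its change was 0.12 ± 0.35 with shRNA1, 0.72 ± 0.35 with shRNA2 and 1.79 ± 0.36 with shRNA3 (edgeR BH-adjusted p = 0.788, 0.104 and 0.00139), and with shRNA3 it was 2.19 ± 0.10 in libraries 1 and 2 and 0.40 ± 0.13 in library 3.

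Among the genes of the spindle checkpoint and APC/C, 5 of 8 rose with the shRNA mean (all genes higher, 24.6% to 27.9% by comparison). With shRNA1, shRNA2 and shRNA3, 3, 6 and 5 were higher and none lower. MAD2L1, the checkpoint protein that captures CDC20, was at 47.1, 43.8 and 41.7 with NC, 105, 134 and 138 with shRNA1, 143, 139 and 141 with shRNA2 and 215, 199 and 141 with shRNA3 CPM. The shRNA libraries began at 105, more than 2 times the NC level, and the change was 1.51 ± 0.17 with shRNA1, 1.67 ± 0.17 with shRNA2 and 2.06 ± 0.17 with shRNA3 (edgeR BH-adjusted p = 2.21e-05, 1.11e-05 and 2.99e-06). BUB3, a WD-repeat protein of the same checkpoint, was at 157, 147 and 159.7 with NC, 129.8, 145 and 160.1 with shRNA1, 155, 154 and 157 with shRNA2 and 192, 182 and 158 with shRNA3. Its NC and shRNA libraries overlapped, and its log2 changes of -0.09 ± 0.12 with shRNA1, 0.01 ± 0.12 with shRNA2 and 0.20 ± 0.12 with shRNA3 did not pass the test (edgeR BH-adjusted p = 0.537, 0.961 and 0.185), though libraries 1 and 2 of shRNA3 alone passed as higher (0.27 ± 0.10).

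CDC20, the activator of APC/C and target of the checkpoint, had the highest level per length of this group in NC, 87.6 ± 4.78 (SD, n = 3) CPM per kb. Its CPM was 186, 182 and 168 with NC, 274, 281 and 255 with shRNA1, 322, 276 and 296 with shRNA2 and 553, 546 and 244 with shRNA3. All shRNA libraries were above NC, and libraries 1 and 2 of shRNA3 were the highest. The log2 change was 0.59 ± 0.25 with shRNA1, 0.74 ± 0.25 with shRNA2 and 1.32 ± 0.25 with shRNA3 (edgeR BH-adjusted p = 0.0591, 0.0261 and 0.000994). The shRNA2 call was lost without any 1 of the 3 NC libraries or without shRNA2 library 1 or 3 (edgeR BH-adjusted p up to 0.0805). UBE2C, the ubiquitin-conjugating enzyme that works with APC/C, rose by 0.94 ± 0.21 with shRNA1, 1.14 ± 0.21 with shRNA2 and 1.71 ± 0.21 with shRNA3 (edgeR BH-adjusted p = 0.00261, 0.000816 and 5.21e-05). PTTG1 (securin), which APC/C degrades at anaphase, was at 68.4 to 77.8 CPM in NC and 163, 163 and 71.3 with shRNA3. It passed with shRNA3 only, at 0.84 ± 0.26, a call lost without NC library 2 (edgeR BH-adjusted p = 0.0564). Split, that change was 1.14 ± 0.11 in libraries 1 and 2 and -0.02 ± 0.15 in library 3, which lay within NC.

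The checkpoint kinases had smaller changes than MAD2L1. BUB1, which recruits the other checkpoint proteins to kinetochores, changed by 0.45 ± 0.24 with shRNA1, 0.69 ± 0.24 with shRNA2 and 1.03 ± 0.24 with shRNA3, past the threshold with shRNA2 and shRNA3. The shRNA2 call of BUB1 was lost without any 1 NC library or without shRNA2 library 1 or 2 (edgeR BH-adjusted p up to 0.0864), and library 3 of shRNA3 alone gave 0.20 ± 0.12, which did not pass. BUB1B (BUBR1) changed by 0.25 ± 0.23 with shRNA1, 0.75 ± 0.23 with shRNA2 and 0.36 ± 0.23 with shRNA3 and passed with shRNA2 only, a call lost without NC library 3 (0.0611). TTK (MPS1) changed by 0.61 ± 0.22 with shRNA1, 0.62 ± 0.22 with shRNA2 and 0.41 ± 0.22 with shRNA3 and passed with shRNA1 and shRNA2. Its calls were lost without NC library 1 or 2, shRNA1 library 2 or 3 (for shRNA1) or any shRNA2 library (for shRNA2), with edgeR BH-adjusted p up to 0.14. Library 3 of shRNA3 alone passed for TTK, at 0.85 ± 0.19.

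In the kinetochore group members were called on both sides. Of 5 genes, 2 were higher and 1 lower in each comparison with NC. Of all genes tested, 24.6% to 27.9% were higher and 27.6% to 32.2% lower, and 5 genes are too few to set apart from these shares. NUF2 and NDC80 are partners in a coiled-coil dimer of the NDC80 complex, and they moved in opposite directions. Each overlaps a gene on the opposite strand (RGS5 for NUF2 and KATNBL1P3 for NDC80), whose reads may not be told apart from theirs. NUF2 was at 13.7, 14.5 and 15.5 with NC, 19.3, 30.9 and 39.4 with shRNA1, 44.1, 42.2 and 38.8 with shRNA2 and 46.2, 43.5 and 28.9 with shRNA3 CPM, above NC in all 9 shRNA libraries, and changed by 1.04 ± 0.25 with shRNA1, 1.52 ± 0.25 with shRNA2 and 1.44 ± 0.25 with shRNA3 (edgeR BH-adjusted p = 0.00413, 0.000396 and 0.000576). NDC80 was at 36.7, 41.2 and 42.6 with NC, 18.7, 27.4 and 24.2 with shRNA1, 26.3, 26.9 and 26.4 with shRNA2 and 17.4, 17.9 and 29.9 with shRNA3. Every shRNA library was at 29.9 or less and every NC library at 36.7 or more.

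NDC80 fell by 0.78 ± 0.22 with shRNA1, by 0.60 ± 0.22 with shRNA2 and by 0.88 ± 0.22 with shRNA3 on the log2 scale (edgeR BH-adjusted p = 0.0101, 0.0376 and 0.00537). It also had the highest NC level per length of this group, 11.2 ± 0.857 (SD, n = 3) CPM per kb, against 4.32 ± 0.266 (SD, n = 3) for NUF2. The shRNA2 call was lost without any 1 NC or shRNA2 library and without shRNA1 library 2 or 3 (edgeR BH-adjusted p up to 0.107), and over all alternatives that p ran from 5.88e-06 to 0.107. With shRNA3 the log2 change was -1.19 ± 0.15 in libraries 1 and 2, and -0.40 ± 0.19 in library 3, which did not pass.

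CENPA, the histone H3 variant of centromeres, changed by 0.42 ± 0.15 with shRNA1, 0.30 ± 0.15 with shRNA2 and 0.47 ± 0.15 with shRNA3 and passed with shRNA1 and shRNA3. Its shRNA1 call was lost without NC library 1 or 3 or shRNA1 library 2 (edgeR BH-adjusted p up to 0.112), and its shRNA3 call without NC library 1 or 3 (0.0842). CENPF, a large protein of the outer kinetochore, was at 112, 113 and 112 with NC, 162, 184 and 217 with shRNA1, 258, 284 and 246 with shRNA2 and 77.3, 74.1 and 219 with shRNA3 CPM. Libraries 1 and 2 of shRNA3 were below NC, and library 3 and the other hairpins above it. It passed with shRNA2 only, at 1.22 ± 0.34 (edgeR BH-adjusted p = 0.0105), and with shRNA3 it gave -0.57 ± 0.12 in libraries 1 and 2 and 0.996 ± 0.14 in library 3, both past the threshold. CENPE, a kinesin of the kinetochore, changed by 0.26 ± 0.26 with shRNA1, 0.40 ± 0.26 with shRNA2 and -0.47 ± 0.26 with shRNA3 and did not pass in any of them, while libraries 1 and 2 of shRNA3 alone passed as lower (-0.78 ± 0.21).

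Of 7 mitotic kinesins, motor proteins of the spindle, 5 rose with the shRNA mean, and 4, 6 and 4 rose with shRNA1, shRNA2 and shRNA3 (all genes higher, 24.6% to 27.9%). KIF4A, a kinesin of chromosome arms and the central spindle, was at 41.3, 45.5 and 45.1 with NC, 105, 111 and 139.5 with shRNA1, 124, 130.5 and 135 with shRNA2 and 62.5, 68.4 and 118 with shRNA3 CPM. All shRNA libraries were above NC, those of shRNA3 libraries 1 and 2 least so, and the change was 1.43 ± 0.22 with shRNA1, 1.56 ± 0.22 with shRNA2 and 0.91 ± 0.22 with shRNA3 (edgeR BH-adjusted p = 0.000204, 0.000121 and 0.00394). Without library 3 of shRNA3 the last value was 0.57 ± 0.12, and with that library alone 1.45 ± 0.15. KIF20B, which acts at cytokinesis, was at 44.1, 48.1 and 54.2 with NC, 33.4, 50.2 and 78.9 with shRNA1, 76.7, 86.2 and 79.6 with shRNA2 and 33.9, 33.3 and 63.0 with shRNA3. Its libraries overlapped between NC and shRNA1 and its values of 0.15 ± 0.30 with shRNA1, 0.73 ± 0.30 with shRNA2 and -0.17 ± 0.30 with shRNA3 did not pass (edgeR BH-adjusted p = 0.694, 0.0632 and 0.665).

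KIF2C (MCAK), which shortens microtubules at kinetochores, had the highest NC level per length among the kinesins, 27.5 ± 1.58 (SD, n = 3) CPM per kb, and was at 105, 102 and 93.9 with NC, 135, 154 and 176 with shRNA1, 175, 166 and 163 with shRNA2 and 435, 419 and 185 with shRNA3 CPM. It was above NC in all 9 shRNA libraries, and libraries 1 and 2 of shRNA3 were more than 2 times the others. It changed by 0.63 ± 0.26 with shRNA1, 0.75 ± 0.26 with shRNA2 and 1.79 ± 0.26 with shRNA3 (edgeR BH-adjusted p = 0.0547, 0.0295 and 0.000179). The shRNA2 call was lost without any 1 NC or shRNA2 library (edgeR BH-adjusted p up to 0.0882). KIF11 (Eg5), which pushes the spindle poles apart, was at 62.7, 64.9 and 64.2 with NC, 92.3, 128 and 141 with shRNA1, 130.5, 140.4 and 127 with shRNA2 and 51.1, 49.8 and 142 with shRNA3. It was above NC in 7 shRNA libraries and below it in libraries 1 and 2 of shRNA3. KIF11 changed by 0.92 ± 0.34 with shRNA1, 1.05 ± 0.34 with shRNA2 and 0.34 ± 0.34 with shRNA3 (edgeR BH-adjusted p = 0.0376, 0.0219 and 0.418), and the shRNA3 value was -0.35 ± 0.14 in libraries 1 and 2 and 1.18 ± 0.17 in library 3, both past the threshold. Its shRNA1 and shRNA2 calls were lost without any 1 NC library or without shRNA2 library 2, and the shRNA1 call also without shRNA1 library 2 or 3 or shRNA2 library 1 (edgeR BH-adjusted p up to 0.112).

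The other kinesins rose or were near NC. KIF20A and KIF23, both motors of the central spindle, rose with each hairpin, by 0.81 ± 0.18 with shRNA1, 1.21 ± 0.18 with shRNA2 and 1.11 ± 0.18 with shRNA3 and by 1.42 ± 0.17 with shRNA1, 1.32 ± 0.17 with shRNA2 and 0.87 ± 0.17 with shRNA3. KIF14, which binds PRC1 at the midbody, changed by 0.23 ± 0.19 with shRNA1, 0.56 ± 0.19 with shRNA2 and 0.11 ± 0.19 with shRNA3 and passed with shRNA2 only. That call was lost without NC library 1 or 3 or shRNA2 library 2 or 3 (edgeR BH-adjusted p up to 0.109).

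Of 6 spindle microtubule proteins, 3 rose with the shRNA mean, shRNA1 and shRNA2, and 5 with shRNA3 (all genes higher, 24.6% to 27.9%). GTSE1, a microtubule plus-end protein of G2 and mitosis, was at 29.0, 28.3 and 29.2 with NC, 76.5, 84.6 and 116 with shRNA1, 103, 101 and 102 with shRNA2 and 87.6, 74.8 and 83.1 with shRNA3 CPM. All shRNA libraries were above NC at 74.8 or more, and the change was 1.68 ± 0.16 with shRNA1, 1.82 ± 0.16 with shRNA2 and 1.50 ± 0.15 with shRNA3 (edgeR BH-adjusted p = 5.51e-06, 3.35e-06 and 1.29e-05). TACC3, which crosslinks spindle fibres, rose by 1.50 ± 0.14 with shRNA1, 1.71 ± 0.14 with shRNA2 and 1.75 ± 0.14 with shRNA3 (edgeR BH-adjusted p = 4.64e-06, 2e-06 and 1.86e-06). TPX2, the activator of AURKA on the spindle, had the highest NC level per length of this group, 55.7 ± 3.74 (SD, n = 3) CPM per kb, and was at 216, 197 and 189.6 with NC, 402, 396 and 414 with shRNA1, 441, 436 and 425 with shRNA2 and 885, 797 and 399 with shRNA3 CPM. Its libraries 1 and 2 of shRNA3 were above all other shRNA libraries. It rose by 1.01 ± 0.23 with shRNA1, 1.11 ± 0.23 with shRNA2 and 1.79 ± 0.24 with shRNA3 (edgeR BH-adjusted p = 0.00334, 0.00197 and 8.72e-05).

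HMMR, a spindle protein that is also a receptor of hyaluronan, had the widest standard errors of the 51. Its CPM was 24.4, 31.2 and 27.3 with NC, 12.3, 18.7 and 28.6 with shRNA1, 33.1, 36.7 and 34.8 with shRNA2 and 1.56, 3.35 and 27.5 with shRNA3. Libraries 1 and 2 of shRNA3 were far below all others, library 3 of shRNA3 was within NC, and the shRNA2 libraries were just above NC. The values of -0.48 ± 0.74 with shRNA1, 0.33 ± 0.73 with shRNA2 and -1.33 ± 0.75 with shRNA3 did not pass the test (edgeR BH-adjusted p = 0.604, 0.726 and 0.156). Libraries 1 and 2 of shRNA3 alone passed as lower, at -3.49 ± 0.38, and library 3 alone gave 0.02 ± 0.33. DLGAP5 and NUSAP1, which bundle spindle microtubules, passed with shRNA3 only. NUSAP1 was at 115, 120.2 and 125 with NC, 93.6, 110.4 and 117 with shRNA1, 128, 144 and 134 with shRNA2 and 224, 231 and 139 with shRNA3 CPM, with shRNA1 overlapping NC and libraries 1 and 2 of shRNA3 the highest. NUSAP1 changed by -0.17 ± 0.18 with shRNA1, 0.17 ± 0.18 with shRNA2 and 0.72 ± 0.18 with shRNA3 (edgeR BH-adjusted p = 0.443, 0.439 and 0.00529), and DLGAP5 by 0.75 ± 0.26 with shRNA3. Library 3 alone did not pass for them (0.04 ± 0.23 and 0.24 ± 0.14), and the call of DLGAP5 was also lost without any 1 NC library or shRNA3 library 1 or 2 (edgeR BH-adjusted p up to 0.083).

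All 4 cytokinesis genes rose with the shRNA mean (all genes higher, 27.9%). RACGAP1, part of the centralspindlin complex that marks the division plane, was at 90.9, 89.2 and 80.3 with NC, 188, 195 and 185 with shRNA1, 194, 184 and 183 with shRNA2 and 320.1, 276 and 185 with shRNA3 CPM. All shRNA libraries were above NC at 183 or more, and it rose by 1.13 ± 0.17 with shRNA1, 1.11 ± 0.17 with shRNA2 and 1.59 ± 0.18 with shRNA3 (edgeR BH-adjusted p = 0.000221, 0.000271 and 2.26e-05). ECT2, the exchange factor that activates RHOA there, was at 123, 116 and 128 with NC, 139, 165 and 167 with shRNA1, 159, 168 and 159.7 with shRNA2 and 149.6, 126 and 123 with shRNA3. Libraries 2 and 3 of shRNA3 were within NC, and ECT2 rose with shRNA1 and shRNA2 only, with changes of 0.36 ± 0.12 with shRNA1, 0.41 ± 0.12 with shRNA2 and 0.12 ± 0.12 with shRNA3 (edgeR BH-adjusted p = 0.026, 0.0155 and 0.432). These calls were lost without NC library 1 or 2 or shRNA1 library 2 or 3 for shRNA1, and without NC library 2 or shRNA2 library 2 for shRNA2 (edgeR BH-adjusted p up to 0.0876).

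ANLN (anillin), a scaffold of the contractile ring, had the highest NC level per length of these genes, 39.1 ± 1.06 (SD, n = 3) CPM per kb, and was at 238, 227 and 239 with NC, 227, 291 and 354 with shRNA1, 382, 404 and 380.3 with shRNA2 and 608, 577 and 336 with shRNA3 CPM. Library 1 of shRNA1 was just below NC and the others were above it, most of all libraries 1 and 2 of shRNA3. It changed by 0.31 ± 0.22 with shRNA1, 0.73 ± 0.22 with shRNA2 and 1.11 ± 0.22 with shRNA3 (edgeR BH-adjusted p = 0.25, 0.0152 and 0.00133). PRC1, the bundler of the central spindle, rose with each hairpin, by 0.88 ± 0.13 with shRNA1, 1.02 ± 0.13 with shRNA2 and 0.98 ± 0.13 with shRNA3 (edgeR BH-adjusted p = 0.00015, 5.72e-05 and 7.84e-05).

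Of the last 4 genes, 3 rose with the shRNA mean, shRNA1 and shRNA2, and 2 with shRNA3 (all genes higher, 24.6% to 27.9%). CDCA3, which triggers the degradation of WEE1 at mitotic entry, was at 18.7, 23.5 and 21.2 with NC, 38.9, 41.1 and 52.0 with shRNA1, 66.6, 61.5 and 60.8 with shRNA2 and 68.2, 69.5 and 44.4 with shRNA3 CPM. It was above NC in all 9 shRNA libraries and rose by 1.06 ± 0.19 with shRNA1, 1.57 ± 0.19 with shRNA2 and 1.52 ± 0.19 with shRNA3 (edgeR BH-adjusted p = 0.00064, 4.37e-05 and 5.84e-05). TOP2A, the topoisomerase that untangles sister chromatids, had the highest NC level per length here, 46.9 ± 2.58 (SD, n = 3) CPM per kb, and was at 301, 286 and 319 with NC, 287, 348 and 584 with shRNA1, 618, 688 and 662 with shRNA2 and 1420.4, 1289.7 and 562 with shRNA3 CPM. Of the 9 shRNA libraries, 8 were above all NC libraries, and library 1 of shRNA1 was within them. TOP2A changed by 0.43 ± 0.32 with shRNA1, 1.12 ± 0.33 with shRNA2 and 1.85 ± 0.33 with shRNA3 (edgeR BH-adjusted p = 0.277, 0.0129 and 0.000682), and with library 3 of shRNA3 alone by 0.93 ± 0.28, which passed.

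MKI67, the Ki-67 protein that coats mitotic chromosomes and is used as a marker of proliferation, was at 215, 192 and 177 with NC, 290.0, 289 and 401 with shRNA1, 381, 388 and 384 with shRNA2 and 232, 192 and 333 with shRNA3 CPM. It rose by 0.75 ± 0.20 with shRNA1 (edgeR BH-adjusted p = 0.00825) and 0.98 ± 0.20 with shRNA2 (edgeR BH-adjusted p = 0.00177). With shRNA3 it was at 0.38 ± 0.20 and did not pass (edgeR BH-adjusted p = 0.138), and its libraries 1 and 2 gave 0.12 ± 0.14 while library 3 passed at 0.80 ± 0.16. CDCA2, which brings protein phosphatase 1 to chromatin at anaphase, was at 33.8, 34.1 and 31.9 with NC, 50.4, 50.3 and 45.4 with shRNA1, 44.6, 43.0 and 46.4 with shRNA2 and 25.6, 25.6 and 46.1 with shRNA3. It was above NC in 7 shRNA libraries and below it in libraries 1 and 2 of shRNA3. It passed with shRNA1 only, among changes of 0.55 ± 0.21 with shRNA1, 0.42 ± 0.21 with shRNA2 and -0.04 ± 0.21 with shRNA3 (edgeR BH-adjusted p = 0.0397, 0.106 and 0.898), and that call was lost without any 1 NC or shRNA1 library or shRNA2 library 1 or 2 (edgeR BH-adjusted p up to 0.111). Libraries 1 and 2 of shRNA3 passed as lower (-0.38 ± 0.11) and library 3 as higher (0.50 ± 0.13).

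The split within shRNA3 touched many of the members. In 26 of the 51 members libraries 1 and 2 of shRNA3 were above all 7 other shRNA libraries (28.8% of all genes tested), and in 11 they were below all of them (29.9% of all genes tested). The other 14 lay within them, and in GTSE1, CDC25C and CENPA libraries 1 and 2 differed from library 3 by -0.038, -0.046 and -0.078 on the log2 scale. The members far above included CKS1B, CKS2, NEK2, KIF2C and TOP2A, and those below included CENPE, CENPF, KIF11, HMMR and CDCA2. Several genes called in both parts of the split had a change against NC that differed in size. In libraries 1 and 2 it was 1.85 ± 0.14 for CDK1, 2.72 ± 0.11 for AURKB, 1.62 ± 0.09 for CDC20, 2.09 ± 0.11 for KIF2C, 2.06 ± 0.09 for TPX2 and 1.33 ± 0.13 for ANLN. In library 3 alone it was 0.68 ± 0.19, 1.58 ± 0.14, 0.48 ± 0.12, 0.92 ± 0.14, 1.02 ± 0.10 and 0.55 ± 0.17 in the same order. Other genes had the smaller change in libraries 1 and 2. Among them were KIF4A (0.57, and 1.45 in library 3), KIF23 (0.65 and 1.25), FOXM1 (2.04 and 2.55) and CCNF (0.95 and 1.36). Across the 51 genes, the log2 difference between these libraries and library 3 had a Pearson r of -0.50 and a Spearman rho of -0.52 with transcript length, and of 0.17 and 0.13 with GC content. Over 17035 genes tested the values were -0.12 and -0.12 for length, and 0.17 and 0.19 for GC content. Genes are not independent replicates, these values share the same 3 libraries, and the part of length in the split was not tested.

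**Figure D5:**
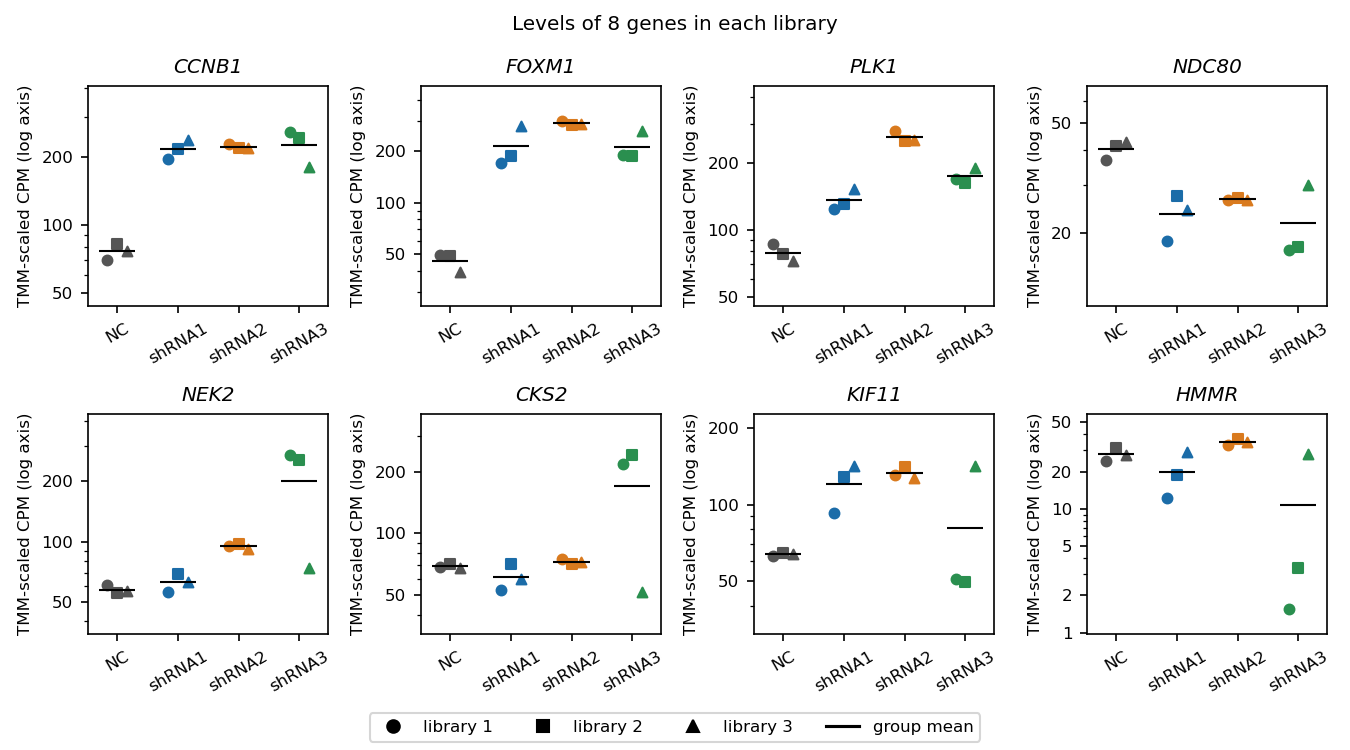
TMM-scaled CPM (log axis) of 8 genes in each library, by group, with libraries 1, 2 and 3 as circles, squares and triangles and the group mean as a line. CCNB1, FOXM1 and PLK1 are above NC in every shRNA library and NDC80 is below it. In NEK2 and CKS2 the circle and square of shRNA3 are far above the triangle, and in KIF11 and HMMR far below it.

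Libraries of shRNA1 also differed among themselves. The median log2 ratio of the 51 members to the NC mean was 0.53, 0.65 and 0.85 in its libraries 1, 2 and 3, beside 0.97, 0.99 and 0.95 with shRNA2 and 1.14, 1.14 and 0.80 with shRNA3. Across the 51 members, the log2 difference of library 1 from libraries 2 and 3 of shRNA1 had a Pearson r of 0.64 and a Spearman rho of 0.69 with GC content, where all genes gave 0.20 and 0.26. The part of GC content in the lower shRNA1 values was not tested.

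Between shRNA1 and shRNA2, edgeR called 0 members higher with shRNA1 and 3 lower, a share of lower members near that of all genes (all genes, 5.78% and 6.53%). At an unadjusted p under 0.05, 0 were higher and 10 lower. The share of all genes at that threshold is not given, so these counts are not a result about the members. DESeq2 also called 0 higher. PLK1 differed by -0.94 ± 0.13 (edgeR BH-adjusted p = 0.00233), CCNF by -0.96 ± 0.16 (edgeR BH-adjusted p = 0.00514) and CDC25B by -0.63 ± 0.13 (edgeR BH-adjusted p = 0.0127), with all 3 shRNA1 libraries below all 3 shRNA2 libraries in each gene. The call of CDC25B was lost without shRNA1 library 1 or shRNA2 library 1 or 3 (edgeR BH-adjusted p up to 0.0618). Without library 3 of shRNA3 19 members were lower with shRNA1 than with shRNA2 (all genes, 19.2%), and without shRNA1 library 3 there were 5 (8.38%).

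Between shRNA1 and shRNA3, 2 members were higher with shRNA1 and 18 lower (all genes, 11.9% and 18.1%). The smallest adjusted p-values were those of CDC25B, at -0.95 ± 0.13 (edgeR BH-adjusted p = 0.00259), AURKB, at -1.28 ± 0.26 (edgeR BH-adjusted p = 0.00766), and NUSAP1, at -0.89 ± 0.18 (edgeR BH-adjusted p = 0.00799). The 2 higher genes were AURKA, at 0.35 ± 0.12 (edgeR BH-adjusted p = 0.0395), and KIF23, at 0.55 ± 0.17 (edgeR BH-adjusted p = 0.03). With library 3 of shRNA3 alone, 0 members were higher and 3 lower (all genes, 3.22% and 4.88%), and with libraries 1 and 2 alone 13 were higher and 29 lower (32.4% and 31.0%). The number lower was 5 without shRNA1 library 1 (all genes, 8.40%) and 7 without shRNA1 library 2 (6.74%). It was 8 without shRNA3 library 1 or without library 2 (7.91% and 7.80%), and the number higher was 0 or 1 without any single library other than shRNA1 library 1 and shRNA3 library 3. The call of AURKA was kept in 1 of the 12 fits that leave out a library.

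Between shRNA2 and shRNA3, 3 members were higher with shRNA2 and 1 lower (all genes, 1.91% and 6.43%). PLK1 differed by 0.59 ± 0.13 (edgeR BH-adjusted p = 0.0314), AURKA by 0.47 ± 0.12 (edgeR BH-adjusted p = 0.0385), CCNF by 0.57 ± 0.16 (edgeR BH-adjusted p = 0.0492) and KIF2C by -1.04 ± 0.26 (edgeR BH-adjusted p = 0.0394). None of the 4 calls was kept when any 1 NC library, any 1 shRNA2 library, shRNA1 library 2, or shRNA3 library 1 or 2 was left out, and without shRNA1 library 1 that of PLK1 was the only one kept. Without library 3 of shRNA3, 15 members were higher and 23 lower (all genes, 30.7% and 28.5%). With library 3 as the only shRNA3 library, 1 was higher and 0 lower (0.571% and 0.707%).

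Other genes of the same pathways were read in 8 lists of 170 genes, written with earlier results of these data known. Beside each list stand the shares of all genes tested with the shRNA mean, 27.9% higher and 32.2% lower. Of 16 cohesin genes, which hold sister chromatids together, 10 rose with the shRNA mean and 1 fell. SMC1A, a core subunit, was at 80.1 to 85.0 CPM in NC and 203 to 357 with shRNAs, a change of 1.78 ± 0.17 for the shRNA mean (edgeR BH-adjusted p = 4.4e-06). SGO2, a protector of centromeric cohesin, had the lowest change, -0.38 ± 0.15 for the shRNA mean (edgeR BH-adjusted p = 0.042). Of 8 condensin subunits, which compact chromosomes, 5 rose and 1 fell: NCAPD3 was at 1.82 ± 0.14 for the shRNA mean (edgeR BH-adjusted p = 7.75e-07) and SMC2 at -0.58 ± 0.14 for the shRNA mean (edgeR BH-adjusted p = 0.00335). SMC2 was at 57.6 to 66.5 CPM in NC and 27.2 to 54.8 with shRNAs, with no overlap. Of 16 subunits and activators of APC/C, 5 rose and 1 fell, a share near that of all genes for the rise. ANAPC4 was at 1.72 ± 0.33 for the shRNA mean (edgeR BH-adjusted p = 0.000808), and ANAPC13 at -1.01 ± 0.09 for the shRNA mean (edgeR BH-adjusted p = 2.79e-06).

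Of 26 further kinetochore and checkpoint genes, 15 rose and none fell with the shRNA mean (all genes, 27.9% and 32.2%). With shRNA1, shRNA2 and shRNA3, 10, 13 and 12 rose (all genes, 26.8%, 24.6% and 26.4%). ZW10, which brings dynein to kinetochores, had the highest change, 1.61 ± 0.29 for the shRNA mean (edgeR BH-adjusted p = 0.000556), with libraries 1 and 2 of shRNA3 at 11.6 and 13.9 CPM and the other shRNA libraries at 32.9 to 42.0. MAD1L1, the partner of MAD2, had the lowest, -0.05 ± 0.20 for the shRNA mean (edgeR BH-adjusted p = 0.848). Of 33 other mitosis genes, 22 rose and 1 fell. CDC25A, the phosphatase of the G1/S and G2/M transitions, was at 4.41 to 5.22 CPM in NC and 20.5 to 114 with shRNAs, 3.63 ± 0.36 for the shRNA mean (edgeR BH-adjusted p = 5.79e-06). CCNB3, a cyclin known from meiosis, was under 1 CPM in every library and at -1.71 ± 0.58 for the shRNA mean (edgeR BH-adjusted p = 0.0231).

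Of 20 regulators of G2/M transcription, 13 rose and 2 fell with the shRNA mean (all genes, 27.9% and 32.2%). E2F2, an activating E2F factor, had the highest change, 3.81 ± 0.34 for the shRNA mean (edgeR BH-adjusted p = 2.11e-06), from 2.28 to 2.80 CPM in NC to 19.8 to 57.3. RBL2 (p130), which holds the repressive DREAM complex on CHR promoters in resting cells, had the lowest, -1.43 ± 0.26 for the shRNA mean (edgeR BH-adjusted p = 0.000555). Its CPM was 127, 117 and 138 with NC, 19.6, 23.8 and 39.3 with shRNA1, 45.0, 55.6 and 49.2 with shRNA2 and 104, 92.9 and 36.8 with shRNA3, and its log2 change was -2.21 ± 0.36 with shRNA1, -1.35 ± 0.35 with shRNA2 and -0.71 ± 0.34 with shRNA3 (edgeR BH-adjusted p = 0.000298, 0.00625 and 0.0987). Of 11 inhibitors of mitotic entry, 6 rose and 1 fell with the shRNA mean. With shRNA1, shRNA2 and shRNA3, 5, 5 and 9 rose (all genes, 26.8%, 24.6% and 26.4%) and 1, 2 and 0 fell (30.6%, 28.4% and 27.6%). CDKN1C (p57), a CDK inhibitor, was at 11.3, 9.25 and 10.1 with NC, 64.5, 56.6 and 36.1 with shRNA1, 85.0, 85.8 and 84.8 with shRNA2 and 661, 761 and 75.1 with shRNA3 CPM, 3.68 ± 0.60 for the shRNA mean (edgeR BH-adjusted p = 0.000244). CHEK2, a kinase of the DNA damage response, was at -0.48 ± 0.11 for the shRNA mean (edgeR BH-adjusted p = 0.0023).

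Genes of DNA replication and S phase were also mostly higher. Of 40, 33 rose and 1 fell with the shRNA mean (all genes, 27.9% and 32.2%). With shRNA1, shRNA2 and shRNA3, 31, 31 and 26 rose (26.8%, 24.6% and 26.4%) and 1, 0 and 1 fell (30.6%, 28.4% and 27.6%). Their median log2 change was 1.18, beside 0.88 for the 51 mitosis genes, and the difference between the lists was not tested. CCNE2, a cyclin of the G1/S transition, was at 2.17 to 2.90 CPM in NC and 5.33 to 49.2 with shRNAs, 3.20 ± 0.52 for the shRNA mean (edgeR BH-adjusted p = 0.000247). TK1, the thymidine kinase of S phase, fell, at -0.43 ± 0.13 for the shRNA mean (edgeR BH-adjusted p = 0.0132).

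Some limits touch named values. Scaling by library totals alone, without TMM, moved the median of all genes to -0.21 with the shRNA mean, and to -0.10, -0.18 and -0.35 with shRNA1, shRNA2 and shRNA3. Beside those medians the 51 genes had medians of 0.67, 0.62, 0.85 and 0.72, and 32, 25, 31 and 29 members were higher (all genes, 21.2%, 22.1%, 19.5% and 18.3%). Between hairpins, the member median went from -0.23 to -0.19 for shRNA1 against shRNA2 (all genes, 0.05 by library totals). It went from -0.36 to -0.09 for shRNA1 against shRNA3 (all genes, 0.21). For shRNA2 against shRNA3 it went from -0.04 to 0.18 (all genes, 0.18). Of the 51, 21 overlap a gene on the opposite strand in GENCODE release 29, and 11 overlap a gene on their own strand. Among the 21 are CCNA2 (EXOSC9), FOXM1 (ITFG2 and RHNO1), PLK1 (ERN2), NUF2 (RGS5), NDC80 (KATNBL1P3), RACGAP1 (AQP6), CDCA3 (GNB3) and HMMR (HMMR-AS1). Whether counting used strand is not given in the sources used here, so reads of such pairs may not be told apart.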

How the data were processed

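RNA sequencing libraries of 4 groups of 3 were analysed from a single table in which the authors deposited estimated counts per gene, 13.8% of them not whole, with no scaling. Per the submitters' processing notes, HISAT2, HTSeq 0.11.2 and GRCh38 were used, with no role or order stated. The annotation, filters and use of strand are not given in the sources used here. All 12 columns matched a sample title (0 unmatched). Counts were rounded to whole numbers, genes were kept by filterByExpr (minimum count 10, total 15), and all 12 libraries were fitted in 1 model of the 4 groups with TMM scaling and edgeR's quasi-likelihood F test (edgeR 4.0.16, R 4.3.3, robust, two-sided, 8 residual degrees of freedom, common biological coefficient of variation 0.289). Benjamini-Hochberg adjustment covered the 17532 genes tested, with a threshold of 0.05. A standard error is the log2 change divided by the square root of F. CPM are TMM-scaled, and CPM per kb use merged exons of GENCODE release 29 (58396 of 61044 IDs matched). The scripts were tested on simulated data. Promoters are from RefSeq. The spread between libraries includes counting error, which weighs most on genes with few counts.

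The members and lists were chosen with earlier results of these data known. Full values were given, by rule, for the members of each role group with the highest change, the lowest change and the highest NC level per kb, for every member lower in any hairpin, and for the 3 with the smallest adjusted p between each pair of hairpins. From each other list came the genes with the highest and lowest change. FOXM1, CCNB1, CDK1, NEK2, CENPF, KIF11 and MKI67 were added after their values were seen. Alternatives were DESeq2 size factors, library totals, 2 other filters, thinned libraries, the DESeq2 Wald test (DESeq2 1.42.0), stricter thresholds, only the libraries compared, a replicate block, each library left out, shRNA3 libraries 1 and 2 left out together, a promoter window from 150 bases before the start, and a pseudocount of 0.1 for FMOD in place of 1.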

Additional observations from a re-analysis of the deposited data

How the results depend on the processing

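Of the 145 calls of members against NC with the 3 hairpins and their mean, 145 were kept with DESeq2 size factors, thinned libraries and the DESeq2 Wald test, 142 with a replicate block, 136 with no filter, 133 with a mean of at least 50 counts, 118 with library totals only and 117 at an adjusted p under 0.01. Sign changes of values called in neither fit (128) were not counted as reversals. With a log2 change of at least 1, 22 members were higher with the shRNA mean, 17 with shRNA1 and 0 lower in any comparison with NC. At an adjusted p under 0.01, 0 were lower with shRNA1 or shRNA2. For shRNA2 0 were also lower with library totals only or no filter. The replicate numbers did not pair the libraries (mean r of deviations -0.00434 over 18 pairs with the same number, range -0.0663 to 0.0520, and 0.00186 over 36 pairs with different numbers). A replicate block gave 2 members lower with shRNA3 (NDC80, and HMMR at -1.93), and 0 higher and 0 lower between shRNA2 and shRNA3. Counts of members in this section stand without the share of all genes, so they describe the settings and are not results about the members. Between shRNA1 and shRNA2, 0 were lower at a log2 change of at least 1, and 15 with only the libraries compared. Between shRNA1 and shRNA3, higher and lower counts were 0 and 4 at an adjusted p under 0.01, 0 and 7 at a log2 change of at least 1, 0 and 0 with only the libraries compared, and 0 and 3 without both libraries. The higher count was 0 with no filter and 5 with DESeq2. Between shRNA2 and shRNA3 they were 0 and 0 at an adjusted p under 0.01 and with only the libraries compared, 1 and 0 without both libraries, and 8 and 10 with DESeq2, with 0 higher at a log2 change of at least 1 and 1 higher with no filter. With each library left out in turn, members lower ranged from 1 to 2 with the shRNA mean, 0 to 1 with shRNA2 and 1 to 6 with shRNA3. Between hairpins they ranged from 2 to 19 lower (shRNA1 against shRNA2), 0 to 13 higher and 5 to 29 lower (shRNA1 against shRNA3), and 0 to 15 higher and 0 to 23 lower (shRNA2 against shRNA3). The shRNA3 changes of CENPF and KIF11 ranged from -0.57 to 0.45 and from -0.35 to 0.64. Without both shRNA3 libraries 1 and 2, the shRNA3 change was -0.057 for CKS1B, -0.40 for CKS2, 0.50 for CDCA2 and -0.016 for PTTG1, and shRNA1 against shRNA3 gave 0.13 for CDC20, 0.0001 for TPX2, 0.10 for CKS1B and 0.23 for CKS2. These values differ in sign from the fit of all libraries, but several of them are near 0 and show no change in the other direction. Fewer libraries entered these fits, and the cause of the changes of sign was not tested. With promoters from 150 bases before the start, the shares of members and of all genes were 76.2% and 12.4% for CHR, 81.0% and 31.1% for CCAAT, 47.6% and 8.49% for 2 or more CCAAT, and 14.3% and 6.16% for E2F. With a pseudocount of 0.1 the FMOD difference was -1.11.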
